A study of Sus scrofa with 6 samples.

Results

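Integrins are paired alpha and beta receptors that span the plasma membrane. Outside the cell they bind matrix proteins such as laminin, collagen and fibronectin, and inside the cell talin, vinculin and integrin-linked kinase connect them to actin. In skeletal muscle these proteins gather in costameres, the rib-like sites that couple the Z-discs of the outer myofibrils to the membrane and the basement membrane around the fibre. Beta 1 is the common partner of the muscle alpha subunits, while alpha 5 beta 1 is the classic fibronectin receptor.

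The genes described here were 10 symbols: ITGA1, ITGA5, ITGA6, ITGA7, ITGB1, ITGB5, ILK, TLN1, TLN2 and VCL. They were taken by gene symbol from a table of 25322 genes, where 8 of the 10 had a row under their symbol. Each had 1 row, so no choice between rows was needed. TLN2 had a row without a symbol, matched by its gene ID, and its values are given beside those of the 8. ITGA7, the main alpha subunit of adult muscle fibres, is not analysed here. All 8 passed the filter on low counts, and so did the TLN2 row.

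RNA was sequenced from the longissimus dorsi, the loin muscle, of Wei pigs and Yorkshire pigs, with 3 libraries per breed. Wei is the group whose column names start with YH and Yorkshire the group whose names start with LWH, codes that the labels do not explain. Wei pigs were fed a commercial diet without restriction and slaughtered at 90 kg, and the Yorkshire animals had similar rearing, with no slaughter weight given. No treatment, genotype, sex or age is stated. Nor do the labels say that each library came from its own animal. A p-value here thus covers only library-to-library spread, part of which may be technical.

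Total counts ranged from 15285197 to 27096747 per library. Muscle fibre markers were abundant throughout: 9 of 12 listed markers were in the table and summed to between 97240 and 187100 CPM (counts scaled to library depth, after TMM scaling) in Wei and between 161900 and 176400 in Yorkshire, with Wei replicate 1 the lowest library. Yorkshire replicate 3 stood apart in immune markers, with a summed macrophage level of 180.2 CPM over 12 genes against 44.5 to 56.4 in the other 5 libraries, and a summed lymphocyte level of 29.8 CPM over 12 genes. The lymphocyte sum was 6.41 and 7.58 CPM in the other Yorkshire libraries and 3.67 to 5.27 CPM in Wei, so it was lower in Wei without overlap. All 6 tested lymphocyte markers had negative changes (median log2 fold change -1.71). Of them 5 had an unadjusted p under 0.05 in edgeR's test, against 11.8% of all tested genes in this direction. None passed after adjustment. Wei replicate 2 had 6901 counts on the Y chromosome, and each other library had 14 or fewer. Only that library thus had the Y chromosome reads of a male, and it did not share an animal with Wei replicates 1 and 3. Sex was therefore not balanced between the breeds, and its part in the results was not tested. Fibroblast markers, 11 of 12 in the table, summed to between 588.6 and 1600 CPM in Wei and between 2077 and 3429 in Yorkshire, with no overlap. COL3A1 and COL1A2 made up much of this sum, with means of 1964 and 399 CPM in Yorkshire and 596 and 165 in Wei. All 10 tested fibroblast markers had negative changes (median log2 fold change -0.57). Only COL3A1, COL1A2 and DPT, 3 of the 10, were lower without overlap (15.3% of all tested genes). At an unadjusted p under 0.05 in edgeR's test 4 were lower (11.8% of all tested genes), and 1, DPT, was called (2.35%). No marker gene in these 4 lists was at 0 in all libraries. The sums of smooth muscle and pericyte markers (9 of 10 in the table) overlapped between the breeds, at 192.4 to 439.8 CPM in Wei and 269.2 to 353 in Yorkshire, but the single markers were unlike. Of the 9, 4 were lower in Wei without overlap, against 15.3% of all tested genes. At an unadjusted p under 0.05 in edgeR's test 5 were lower (11.8% of all tested genes), and 1 was called lower (2.35%). The median log2 fold change of the 9 was -0.55. The 4 were PDGFRB, RGS5, NOTCH3 and CSPG4, the last being the call (adjusted p = 0.0453), and they are named after their values were seen. The remaining markers, ACTA2, TAGLN, MYH11, CNN1 and KCNJ8, overlapped between the breeds. ACTA2, TAGLN and MYH11 had positive log2 fold changes of 0.53, 0.15 and 0.78, none of them called. These markers were highest in Wei replicate 3 (174, 91.0 and 25.3 CPM). CNN1 had a log2 fold change of -0.75 (unadjusted p = 0.0416 in edgeR's test, adjusted p = 0.196) and KCNJ8 one of -0.12. In bulk tissue, fewer cells of a type and less RNA per cell cannot be told apart.

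Wei and Yorkshire loin muscle were compared to find the genes whose expression differs between the breeds. Among the integrin and costamere genes ITGA5, the fibronectin-binding alpha subunit, fell in Wei to 11.3 ± 1.03 CPM (SD, n = 3) from 18.1 ± 1.18 in Yorkshire, which is 1.60-fold higher in Yorkshire. No other member passed the test. VCL and ITGB5 had higher mean levels in Wei by 1.31-fold and 1.33-fold, without passing it. ITGB1, the beta subunit that ITGA1, ITGA5 and ITGA6 share, had means of 233 ± 21.2 CPM in Wei and 261 ± 20.8 in Yorkshire, and the gene did not pass.

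With edgeR's quasi-likelihood test and Benjamini-Hochberg adjustment over 13209 genes, 1 of the 8 members was lower in Wei at an adjusted p under 0.05 and 0 were higher. Over all genes tested, 2.35% were lower and 2.73% higher, or 5.08% in either direction. At an unadjusted p under 0.05, 2 members were higher (VCL and ITGB5) and 1 lower (ITGA5), where 23.3% of all genes stood in either direction. DESeq2 and limma voom also called 1 member lower and 0 higher. The CPM values of the breeds did not overlap for 4 of 8 members, and for 29.6% of all genes. The median log2 fold change (Wei over Yorkshire) was -0.16 over the 8 members and -0.02 over all tested genes. Changes were negative for 6 of the 8 and for 6897 of all 13209 tested genes.

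**Figure D1:**
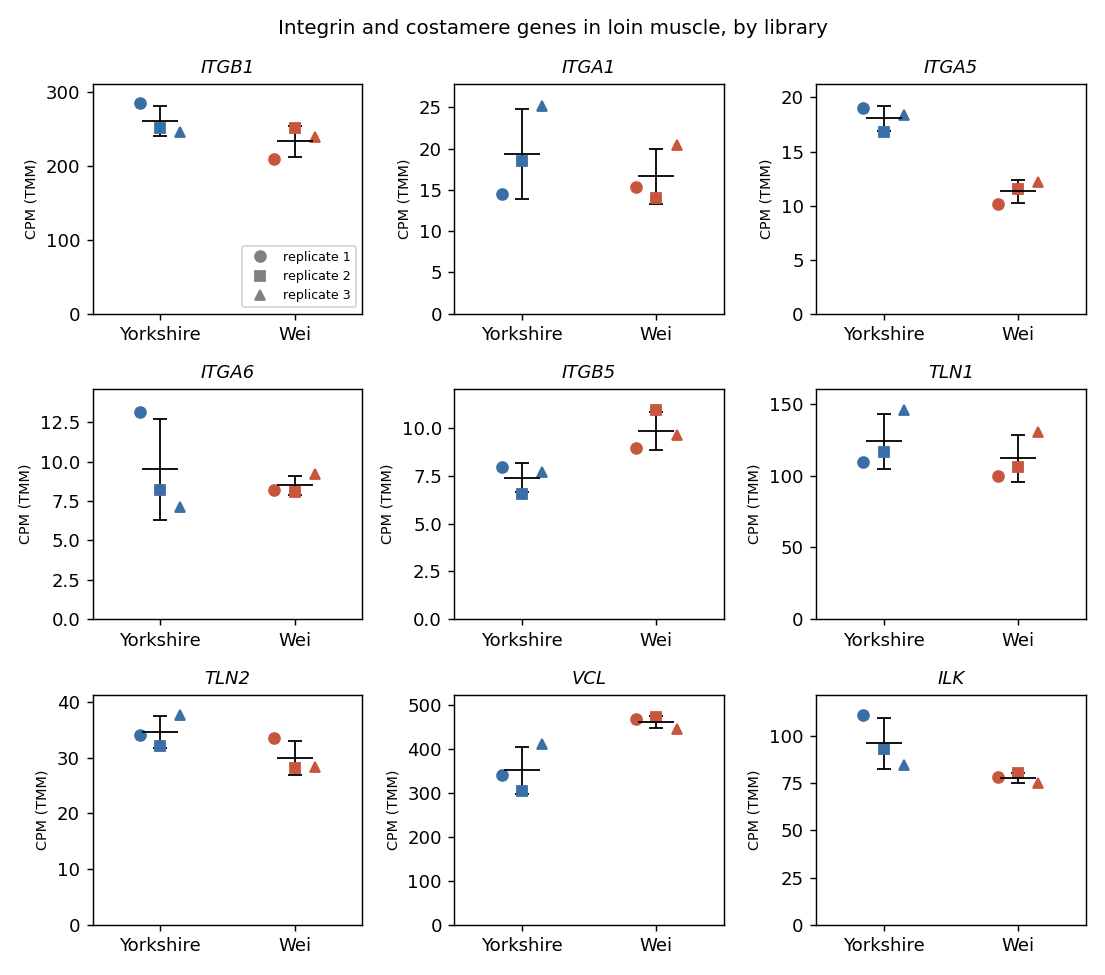
Expression of the 9 genes with a row, in CPM after TMM scaling, for each library; the vertical axes start at 0, symbols mark replicates, and bars show the mean and SD of 3 libraries. The 3 Wei values of ITGA5 (10.18 to 12.2 CPM) lie below the 3 Yorkshire values (16.8 to 19.1 CPM), while those of ITGB1 and TLN1 overlap.

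Levels of different genes were set against each other per length, with the FPKM values that the authors deposited. VCL was the highest in each library, at 85.4 ± 10.5 FPKM in Wei and 66.0 ± 13.4 in Yorkshire, followed by ITGB1 at 48.8 ± 3.01 and 55.4 ± 1.47. ILK stood at 25.0 ± 2.97 FPKM in Wei and 31.1 ± 2.44 in Yorkshire, and TLN2 at 22.0 ± 4.48 and 25.7 ± 3.41. These neighbours were not separated by their spread, since TLN2 exceeded ILK in Yorkshire replicate 3 (29.6 against 29.1 FPKM). TLN1 was at 13.7 ± 0.943 FPKM in Wei and 15.6 ± 3.36 in Yorkshire, and ITGB5 at 11.1 ± 1.09 and 8.46 ± 0.921. The alpha subunits were the lowest of the genes: ITGA5, ITGA1 and ITGA6 had 2.04 ± 0.0241, 2.09 ± 0.317 and 1.11 ± 0.0824 FPKM in Wei and 3.33 ± 0.247, 2.52 ± 0.857 and 1.24 ± 0.342 in Yorkshire. In Wei ITGA5 and ITGA1 exchanged places between libraries. The gene lengths implied by count and FPKM were 881 bases for ITGB5 and 1363 bases for TLN2, against 8065 for TLN1 and 4736 for ITGB1, so the ITGB5 and TLN2 rows rest on short gene models and their rank per length is uncertain.

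ITGB1 (ENSSSCG00000011101, chromosome 10, 61450695 to 61502941 in Sscrofa10.2) pairs with the alpha subunits among the members, ITGA1, ITGA5 and ITGA6. It stood at 285, 252 and 246 CPM in Yorkshire replicates 1 to 3 and at 210, 251 and 239 CPM in Wei replicates 1 to 3. The highest value was in Yorkshire replicate 1 and the lowest in Wei replicate 1, and the breeds overlapped. The change was -0.16 ± 0.13 (SE) on the log2 scale, with a 95% interval from -0.46 to 0.14 (edgeR's quasi-likelihood test, adjusted p = 0.489). On the deposited FPKM scale, which is not TMM-scaled, the breeds did not overlap: 53.9 to 56.8 FPKM in Yorkshire and 45.7 to 51.7 in Wei. Among 3816 genes with a symbol and an average log2 CPM of at least 4, those with the closest pattern to ITGB1 over the 6 libraries were RPL36A, EIF3G, BTBD1 and STAG2. The likeness measure was the root mean square difference of log2 CPM, each centred on its own mean, and it was 0.0388, 0.0527, 0.0537 and 0.0542 for these genes. The nearest member was ILK, at 0.114.

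Of the alpha subunits, ITGA5 (ENSSSCG00000000293, chromosome 5, 20442128 to 20465312) had 19.1, 16.8 and 18.4 CPM in Yorkshire and 10.18, 11.6 and 12.2 CPM in Wei. All 3 Wei libraries were below all 3 Yorkshire libraries, with counts of 172 to 249 in Wei and 303 to 504 in Yorkshire. On the log2 scale ITGA5 changed by -0.68 ± 0.14, with a 95% interval from -0.998 to -0.35 (edgeR's quasi-likelihood test, adjusted p = 0.0363). The adjusted p was 0.00717 with DESeq2, 0.0384 with limma voom and 0.0504 with library size alone as scaling. With any 1 of the 6 libraries left out it lay between 0.0701 (without Wei replicate 3) and 0.103 (without Yorkshire replicate 3), so the call was lost each time, and the log2 fold change lay between -0.73 and -0.60. The fibroblast marker sum, in which COL3A1 and COL1A2 weigh heavily, and the lymphocyte marker sum, given above, were also lower in Wei without overlap. Of the 9 smooth muscle and pericyte markers 4 were lower without overlap too, against 15.3% of all tested genes. The sum of the 9 overlapped between the breeds, and 3 of the 9 had positive changes. The part of these marker lists in the ITGA5 difference was not tested. The endothelial marker sum, with 12 of 13 genes in the table and none at 0 in all libraries, overlapped between the breeds, with 201.8 to 288.7 CPM in Wei and 248.9 to 285.6 in Yorkshire. Of the 12 markers 1 was lower and 1 higher in Wei without overlap, against 15.3% and 14.3% of all tested genes. PECAM1 was the lower, at 71.2 to 88.3 CPM in Wei and 102.8 to 111.3 in Yorkshire (edgeR adjusted p = 0.121). EMCN, at under 1 CPM in each library, was the higher.

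ITGA1 (ENSSSCG00000016885, chromosome 16, 33941071 to 34137391), a collagen-binding subunit, had 14.5, 18.5 and 25.2 CPM in Yorkshire and 15.4, 14.0 and 20.5 CPM in Wei. Yorkshire replicate 3 was the highest, and the breeds overlapped. ITGA1 had a log2 fold change of -0.22 ± 0.23 (95% interval -0.75 to 0.31, edgeR adjusted p = 0.603), and it was 0.02 without Yorkshire replicate 3, the library with the high immune marker sums. The part of those markers in the ITGA1 value was not tested.

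ITGA6 (ENSSSCG00000015955, chromosome 15, 87830505 to 87900014) is a laminin-binding subunit. Its levels were 13.2, 8.19 and 7.14 CPM in Yorkshire and 8.22, 8.06 and 9.20 CPM in Wei, so that 1 library, Yorkshire replicate 1, was above the other 5. ITGA6 had a log2 fold change of -0.16 ± 0.24 (95% interval -0.71 to 0.39, edgeR adjusted p = 0.726) and 0.15 without Yorkshire replicate 1. Within-breed scatter was largest for ITGA1 and ITGA6 among the members, with pooled SDs of 0.346 and 0.332 log2 CPM, and smallest for ITGA5, with 0.116, beside a median of 0.255 over all tested genes.

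ITGB5 (ENSSSCG00000024844, chromosome 13, 145063935 to 145108286) pairs with alpha V in a vitronectin receptor. It had 7.97, 6.53 and 7.69 CPM in Yorkshire and 8.93, 10.9 and 9.64 CPM in Wei. All Wei values were above the Yorkshire values, from 118 to 211 counts per library. The log2 fold change of 0.41 ± 0.16 had a 95% interval from 0.03 to 0.78 and did not pass (edgeR's quasi-likelihood test, adjusted p = 0.183).

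Inside the cell, talin binds the beta tail and switches integrins to their active state. TLN1 (ENSSSCG00000005317, chromosome 1, 264141075 to 264169348) had 110, 116 and 146 CPM in Yorkshire and 99.8, 106 and 131 CPM in Wei. The breeds overlapped, and Yorkshire replicate 3 was again the highest. For TLN1 the log2 fold change was -0.14 ± 0.16 (95% interval -0.51 to 0.22, edgeR adjusted p = 0.626). It ran from -0.27 without Wei replicate 3 to -0.0064 without Yorkshire replicate 3, the library with the high immune marker sums, whose part in the TLN1 value was not tested. TLN2, the talin typical of mature striated muscle (ENSSSCG00000024088 by gene ID, chromosome 1, 120431331 to 120439666), had 34.0, 32.1 and 37.7 CPM in Yorkshire and 33.5, 28.1 and 28.4 CPM in Wei. Wei replicate 1 lay within the Yorkshire range and the other Wei libraries below it. For TLN2 the log2 fold change was -0.21 ± 0.13 (95% interval -0.51 to 0.10, edgeR adjusted p = 0.383).

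Vinculin joins talin to actin under load. VCL (ENSSSCG00000010313, chromosome 14, 82826612 to 82938103) stood at 339, 304 and 410 CPM in Yorkshire and at 466, 471 and 445 CPM in Wei. On this scale all Wei libraries were above all Yorkshire libraries, with Yorkshire replicate 3 the nearest, and on the FPKM scale that library (81.4) lay within the Wei range of 74.9 to 95.9. The log2 fold change was 0.39 ± 0.14, with a 95% interval from 0.06 to 0.72, and it did not pass (edgeR's quasi-likelihood test, adjusted p = 0.150).

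ILK, the pseudokinase scaffold that links beta tails to parvin and PINCH (ENSSSCG00000023272, chromosome 9, 3802104 to 3810334), had 111, 93.1 and 84.6 CPM in Yorkshire and 78.2, 80.7 and 75.1 CPM in Wei. The Wei values were lower without overlap, although 80.7 in Wei replicate 2 and 84.6 in Yorkshire replicate 3 were close. Its log2 fold change was -0.31 ± 0.13 (95% interval -0.61 to 0.00, edgeR adjusted p = 0.217).

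**Figure D2:**
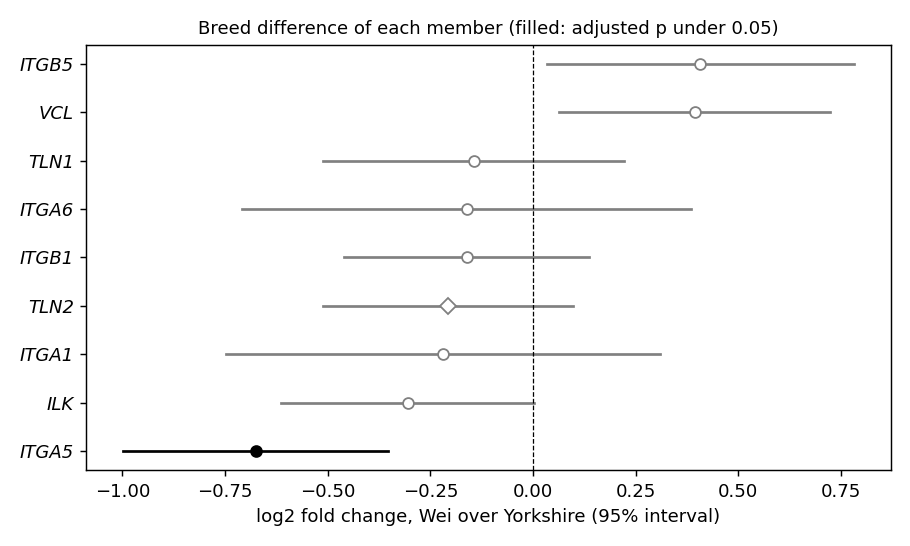
Log2 fold change of each member, Wei over Yorkshire, with its 95% interval from edgeR's quasi-likelihood fit; the filled point passed an adjusted p of 0.05 and the diamond is TLN2, matched by gene ID. ITGA5 at -0.68 is the 1 filled point, and VCL (0.39) and ITGB5 (0.41) lie to the right of 0 with intervals that stop short of it.

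Ratios within a library do not depend on library scaling, so each member was also set over ITGB1 in FPKM. These ratios were chosen after the levels were seen and were not tested. The ITGA5 ratio was 0.0600 ± 0.00396 in Yorkshire and 0.0420 ± 0.00215 in Wei. The VCL ratio was 1.05, 1.06 and 1.47 in Yorkshire and 1.95, 1.65 and 1.64 in Wei, and the ITGB5 ratio was 0.152 ± 0.0145 and 0.226 ± 0.00853. In these 3 ratios the breeds did not overlap. For ITGA1, ITGA6, ILK, TLN1 and TLN2 they did, and the mean ratio in Wei was 0.948, 1.02, 0.913, 1.003 and 0.976 times that in Yorkshire.

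The make-up of each family was tested as 6 shares of the summed FPKM with an exact two-sided permutation test over libraries, which cannot go below 0.1 with 3 against 3. ITGA5 made up 49.4%, 47.1% and 44.7% of the sum of ITGA1, ITGA5 and ITGA6 in Yorkshire and 37.9%, 42.6% and 36.8% in Wei. The breeds did not overlap, with a difference of -7.95 percentage points (exact permutation p = 0.1, Benjamini-Hochberg adjusted p = 0.3). ITGB1 made up 86.8 ± 1.09% of the sum of ITGB1 and ITGB5 in Yorkshire and 81.5 ± 0.569% in Wei (exact permutation p = 0.1, adjusted p = 0.3). That difference of -5.23 points was -1.28 points when CPM, which takes no account of length, replaced FPKM. ITGB5 weighs less in CPM, since its short gene model may hold the reads of only a part of the transcript. Its weight in this share is thus uncertain on either scale.

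Shares of the other family members overlapped between the breeds. ITGA1 had 35.1 ± 8.42% of the alpha sum in Yorkshire and 39.8 ± 3.55% in Wei (exact permutation p = 0.5, adjusted p = 0.6), and ITGA6 17.8 ± 6.11% and 21.1 ± 1.04% (exact permutation p = 0.4, adjusted p = 0.6). TLN1 had 37.6 ± 2.16% of the talin sum in Yorkshire and 38.7 ± 5.13% in Wei (exact permutation p = 0.9, adjusted p = 0.9). The TLN2 row rests on a short gene model, whose reads may stand for only a part of the transcript, so which talin is more abundant is uncertain. In CPM, which takes no account of length and so does not settle this, TLN1 had a mean of 124 and TLN2 one of 34.6 in Yorkshire. In Wei the CPM means were 112 and 30.0. The alpha sum was 12.8 ± 1.46% of ITGB1 in Yorkshire and 10.8 ± 1.33% in Wei (exact permutation p = 0.2, adjusted p = 0.4). Alpha subunits other than these 3 are outside this sum.

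**Figure D3:**
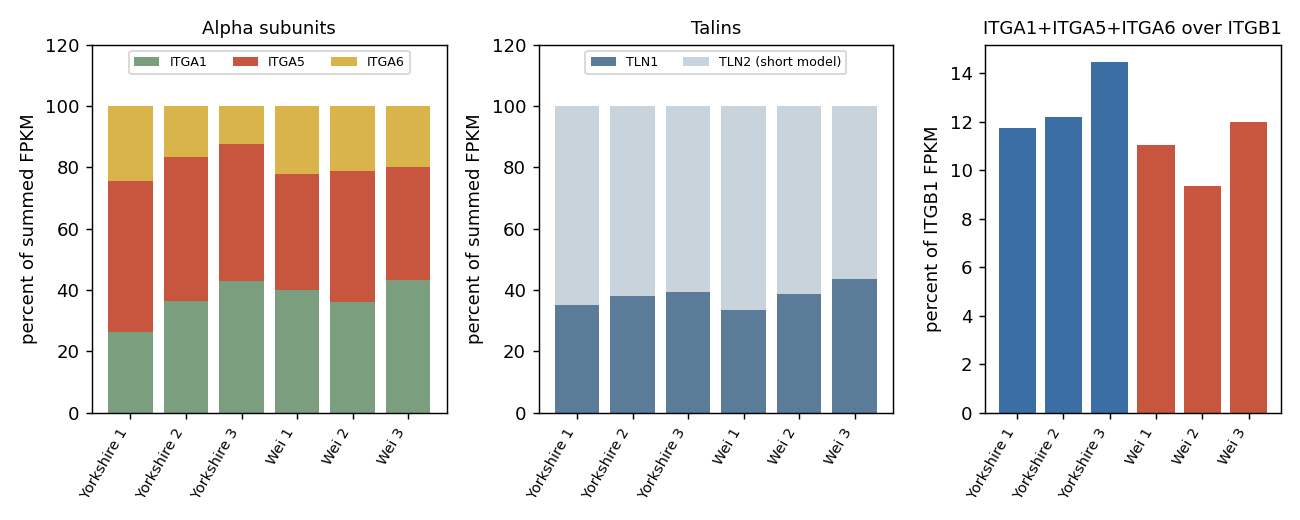
Per-library shares of summed FPKM for the alpha subunits and the talins, and the sum of ITGA1, ITGA5 and ITGA6 as a percent of ITGB1; bars are single libraries. The ITGA5 band is narrower in the 3 Wei libraries (36.8% to 42.6%) than in the 3 Yorkshire libraries (44.7% to 49.4%), and the talin shares overlap between the breeds.

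Genes around the members were taken from 6 lists with 125 symbols in all, of which 102 genes were tested. Of these, 3 were higher and 7 lower in Wei at an adjusted p under 0.05, against 2.73% and 2.35% of all tested genes. Changes were negative for 61 of the 102, and for 6897 of all 13209 tested genes. The count of calls was 0 without Yorkshire replicate 2 and between 3 and 6 without any other library. The highest count was with DESeq2, at 5 higher and 12 lower.

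Among other integrin subunits 1 of 18 tested was higher and 0 lower, against 2.73% and 2.35% of all tested genes. The median log2 fold change was -0.38, with 13 negative changes and 5 positive, where all tested genes had 6897 negative and 6312 positive. ITGB2, ITGAL, ITGA4, ITGB7 and ITGAM, named after their values were seen, were high in Yorkshire replicate 3 (10.6, 11.5, 9.76, 4.34 and 3.97 CPM). Elsewhere they were at most 2.99, 4.49, 3.73, 1.56 and 2.13 CPM. That library had the high immune marker sums, whose part in the list median was not tested. ITGB8, a subunit that pairs with alpha V and activates latent TGF-beta, rose to 17.6, 7.80 and 20.8 CPM in Wei from 5.71, 4.92 and 3.21 in Yorkshire. Wei replicate 2 was the Wei library nearest to Yorkshire. The log2 fold change was 1.75 ± 0.37 (edgeR's quasi-likelihood test, adjusted p = 0.0364). ITGB8 missed the threshold without any 1 of Yorkshire replicates 1, 2 and 3 and Wei replicates 1 and 3, with an adjusted p of up to 0.122, and passed without Wei replicate 2 (0.0120).

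Among integrin activators and ILK partners 1 of 16 was lower and 0 higher, against 2.35% and 2.73% of all tested genes, with a median of -0.10. ITGB1BP2, which encodes melusin, a striated muscle chaperone that binds the beta 1 tail (scaffold GL896552.1, 1547 to 3736), fell in Wei. It had 75.5, 87.3 and 67.0 CPM in Yorkshire and 25.9, 32.5 and 38.3 CPM in Wei. The lowest Yorkshire library was well above the highest Wei library. The log2 fold change was -1.25 ± 0.17 (edgeR's quasi-likelihood test, adjusted p = 0.0119), and the adjusted p was 0.0587 without Yorkshire replicate 2. The partners of ILK, named after their values were seen, did not pass. LIMS1 and LIMS2, the PINCH adaptors, had log2 fold changes of 0.54 ± 0.16 and -0.34 ± 0.15 (edgeR adjusted p = 0.0981 and 0.207), in opposite directions. PARVB had one of -0.03 ± 0.18 and PARVA one of 0.11 ± 0.19.

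No gene passed edgeR's test among 17 tested adhesion adaptors and kinases, with a median of -0.13. At an unadjusted p under 0.05 there were 1 higher and 1 lower, against 11.4% and 11.8% of all tested genes. DESeq2 called 1 and limma voom 0. CRKL, an SH2 and SH3 adaptor, and TNS1, a tensin of fibrillar adhesions, were the most expressed, with log2 fold changes of 0.20 ± 0.12 and 0.56 ± 0.24 (edgeR adjusted p = 0.343 and 0.203). TNS1 stood at 102.6 CPM in Wei replicate 2 against 63.1 and 58.3 in the other Wei libraries, and its log2 fold change was 0.27 without that library.

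Among actin linkers of the costamere and Z-disc 1 of 19 was higher and 0 lower, against 2.73% and 2.35% of all tested genes. The median was 0.22 with 15 positive changes, where 6312 of all 13209 tested genes were positive. PDLIM3, a Z-disc protein that binds alpha-actinin, rose to 5727, 7750 and 3643 CPM in Wei from 3032, 2021 and 2229 in Yorkshire. Wei replicate 3 was the Wei library nearest to Yorkshire. PDLIM3 had a log2 fold change of 1.23 ± 0.29 (edgeR adjusted p = 0.0486). It passed without Wei replicate 3 and missed the threshold without any other library, with an adjusted p of up to 0.173.

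Among integrin ligands 3 of 17 were lower and 0 higher, against 2.35% and 2.73% of all tested genes. The median was -0.51 with 15 negative changes, where 6897 of all 13209 tested genes were negative. COL4A1 and COL4A2, the collagen IV chains of the basement membrane, fell by 0.93 and 1.01 on the log2 scale with SEs of 0.13 and 0.14 (edgeR adjusted p = 0.0115 for both, and 0.0566 for both without Yorkshire replicate 2). THBS4, a muscle and tendon thrombospondin matched by gene ID, fell to 32.2, 28.7 and 28.4 CPM in Wei from 46.2, 40.7 and 48.2 in Yorkshire. THBS4 had a log2 fold change of -0.60 ± 0.13 (edgeR adjusted p = 0.0375, and between 0.0736 and 0.110 with 1 library left out). FN1, the fibronectin bound by alpha 5 beta 1 and named after its values were seen, had 142, 311 and 308 CPM in Yorkshire and 112, 295 and 207 CPM in Wei. The breeds overlapped, and FN1 did not pass, at -0.31 ± 0.38 (edgeR adjusted p = 0.664). COL1A2 and COL3A1 of this list are also fibroblast markers and weigh heavily in the fibroblast sum, which was lower in Wei as given above. The lymphocyte sum was also lower in Wei without overlap. Of the 9 smooth muscle and pericyte markers 4 were lower without overlap too, against 15.3% of all tested genes. The sum of the 9 overlapped between the breeds, and 3 of the 9 had positive changes. The part of these cell types in the ligand values, COL4A1 and COL4A2 included, was not tested.

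The dystrophin complex is the other costamere link between matrix and actin. Of its 15 tested genes 1 was higher and 3 lower, against 2.73% and 2.35% of all tested genes, with a median of -0.08. NOS1, the neuronal nitric oxide synthase held at the membrane by syntrophin, rose to 127, 80.5 and 118 CPM in Wei from 45.1, 21.3 and 18.3 in Yorkshire, and all Wei libraries were above all Yorkshire libraries. Its log2 fold change was 1.94 ± 0.34 (edgeR adjusted p = 0.0248). The sarcoglycans SGCD and SGCB fell by 0.98 and 0.73 on the log2 scale, with SEs of 0.15 and 0.16, and the syntrophin SNTB2 by 1.27, with an SE of 0.30 (edgeR adjusted p = 0.0173, 0.0448 and 0.0494). SGCB missed the threshold without any 1 of the 6 libraries (adjusted p up to 0.137), SGCD without Yorkshire replicate 2 or Wei replicate 1 (up to 0.0716), NOS1 without Yorkshire replicate 2 or 3 or Wei replicate 1 or 3 (up to 0.104), and SNTB2 without any library except Yorkshire replicate 1 (up to 0.144).

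**Figure D4:**
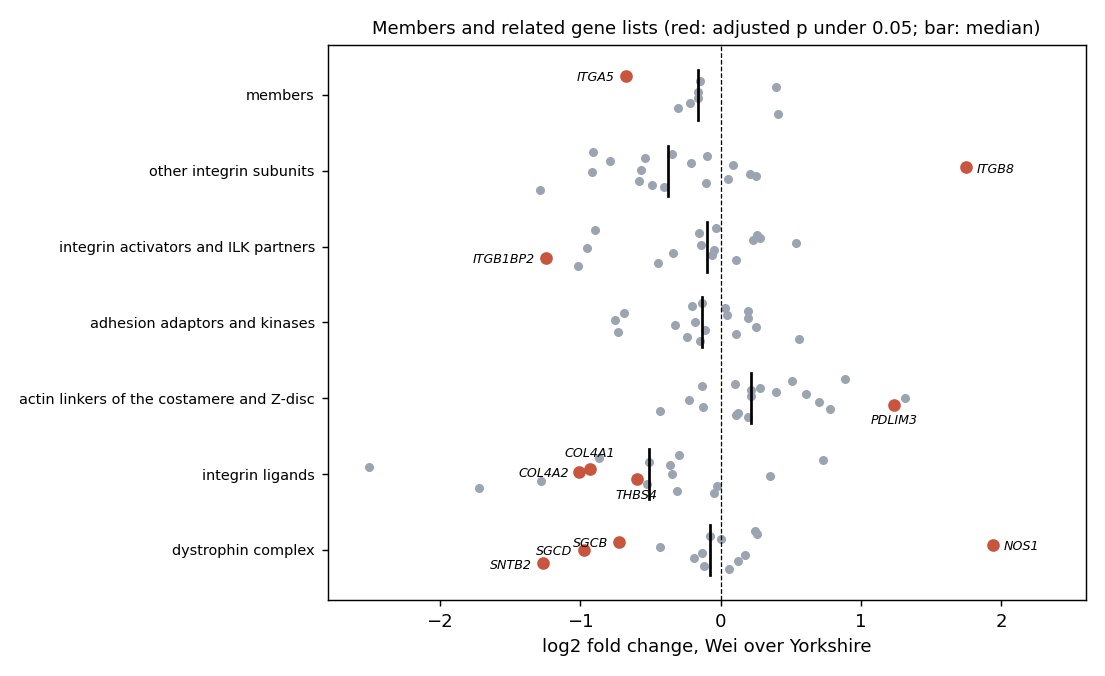
Log2 fold change, Wei over Yorkshire, of each tested gene in the members (8 genes) and 6 related lists; red points with names were called at an adjusted p of 0.05 by edgeR and black bars are list medians. The actin linkers have a median of 0.22 and the integrin ligands one of -0.51, with ITGA5 the 1 red point among the members.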

How the data were processed

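Per the submitters' processing notes, the genome build was Sscrofa10.2, and the tools TopHat2 2.0.9, CASAVA 1.7 and edgeR are listed there, without saying what each was used for. The sources used here do not name the read counter, annotation release or strand setting, so reads of overlapping genes cannot be told apart. The authors deposited raw counts and FPKM values per gene and library, per the file headers. For 4854 genes whose count exceeded 200 in all libraries, FPKM equalled the count divided by a gene constant and a library constant (largest deviation 2.66e-06 on the natural log scale). In R 4.3.3, edgeR 4.0.16 kept 13209 genes (filterByExpr, minimum count 10), applied TMM scaling and ran the quasi-likelihood F test (glmQLFit, then glmQLFTest) with breed as the factor. P-values were adjusted over all these genes by Benjamini-Hochberg, with a threshold of 0.05. Log2 fold changes carry no prior count, the SE is their size divided by the root of F, and the 95% interval uses the fit's degrees of freedom. Log2 CPM used a prior count of 2.

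Members were matched by the table's symbol, and list genes by symbol or else by gene ID. The members, lists and tests were chosen with earlier results of these data known. Named genes were the members, up to 4 called genes per list by adjusted p or else the 2 most expressed, and the 4 genes nearest to ITGB1. The matching search for ITGA7 was not run. A gene of the lists is not reported here and is left out of the list counts. DESeq2 1.42.0, limma 3.58.1 (voom), other scalings, filters and thresholds, the replicate block and leaving out libraries were alternatives. The procedure was tested on simulated counts. Counts of each pair of libraries differed beyond sampling noise (lowest chi-square over its degrees of freedom, 24.5). Figures were drawn with matplotlib 3.10.9.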

Additional observations from a re-analysis of the deposited data

How the results depend on the processing

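The direction of ITGA5 stayed negative under each alternative, which its groups fix in part since they do not overlap. The members called were 0 (0 lower) with library size alone, the replicate block, an adjusted p under 0.01, an absolute log2 fold change of at least 1, and without any 1 library or Yorkshire replicate 3 and Wei replicate 2 together. The last alternative, and the use of gene IDs or table symbols only, were added after the data were seen. All genes called (higher, lower) numbered 52 (33, 19) at an adjusted p under 0.01, 378 (193, 185) with an absolute log2 fold change of at least 1, and 1291 (713, 578) with DESeq2, where the cause was not tested. They numbered 146 (105, 41) without those 2 libraries, and between 60 and 394 (37 to 259 higher, 23 to 135 lower) without 1 library, with fewer samples in each fit. The 102 pathway genes gave 0 calls (0 higher, 0 lower) at an adjusted p under 0.01, 6 (3 higher, 3 lower) with an absolute log2 fold change of at least 1, 17 (5 higher, 12 lower) with DESeq2, 1 (1 higher, 0 lower) without those 2 libraries, and 0 to 6 (0 to 2 higher, 0 to 5 lower) without 1 library. Of 11 named genes called, 8 passed with every scaling, filter and tool, 5 with the replicate block and 0 with each library left out in turn.

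With the replicate block 1 pathway gene was higher and 9 were lower, and the adjusted p of ITGA5 was 0.0654. Across genes, the 3 correlations between deviations of libraries sharing a number were 0.137, -0.00664 and 0.0222, and the libraries were treated as unpaired. Signs turned for uncalled values: with 1 library left out the log2 fold change of ITGA1 ran from -0.40 to 0.0217 and that of ITGA6 from -0.33 to 0.15, and the TLN1 share difference from -1.4 to 3.73 points. Without Yorkshire replicate 3 and Wei replicate 2, ITGA1 was at 0.13 and TLN1 at 0.0357. The median log2 fold change over all genes shifted by 0.02 or less with scaling. Counts were low for ITGB5 (118 to 211 per library), ITGA6 (124 to 337) and SNTB2 (27 to 170), which limits their precision.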
